A study of Mus musculus with 44 samples.

Results

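The genes of cholesterol synthesis and sterol handling described here are 29 listed genes of the 35249 in a table of mouse liver read counts, picked by name and matched through their gene identifiers. They fall into 4 roles: 8 genes of the mevalonate and isoprenoid steps, 11 of the squalene and sterol steps, 4 regulators and 6 genes of sterol transport, esterification and efflux. All 29 were in the table and all 29 passed the filter on low counts that left 14862 genes for testing. The study asked how blocking necroptosis, an inflammatory form of cell death, alters the liver under a diet that leads to fatty liver disease and tumours. The 3 genotypes were: wild type mice (WT), mice without Ripk3 (Ripk3KO, the kinase that starts necroptosis) and mice without Mlkl (MlklKO, the protein that breaches the membrane at its end). From 2 months of age, mice of each genotype ate for 6 months either normal chow (control), a low fat diet lacking choline (CD-LFD) or a high fat diet lacking choline (CD-HFD). The 44 libraries comprise 6 WT control, 6 WT CD-LFD, 6 WT CD-HFD, 6 Ripk3KO control, 3 Ripk3KO CD-LFD, 4 Ripk3KO CD-HFD, 6 MlklKO control, 4 MlklKO CD-LFD and 3 MlklKO CD-HFD samples. No strain, sex or tissue restriction of the deletions is given in the labels used here. They do not say whether each library came from a separate mouse, so p-values measure the spread between these samples.

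Cholesterol is built from acetyl-CoA through mevalonate to isoprenoid units, which are joined to squalene, closed into a ring as lanosterol and trimmed to cholesterol in the endoplasmic reticulum. When sterols are scarce, SCAP carries the transcription factor SREBP2, encoded by Srebf2, to the Golgi for cleavage, and the released factor turns on most genes of the pathway. When sterols are plentiful, INSIG proteins hold SCAP back in the endoplasmic reticulum. A surplus is esterified by the SOAT enzymes, passed to lipoproteins by ABCA1, or secreted into bile by ABCG5 and ABCG8, which work as a pair. The liver is a main site of all of these steps.

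The sequences upstream of a few members are shown because 3 of 4 short motifs searched were found in a larger share of the members than of all promoter windows. For 1 of these 3, the sterol response element core, that share rests on a single member. RefSeq promoter windows (GRCm38.p6) matched 24 of the 29 members by symbol. In the 250 bases before the start site, the CCAAT box (CCAAT on either strand, bound by NF-Y) was found for 20 of these 24 members, 83.3%, against 33.8% of all 32851 windows. The E-box CACGTG, which reads the same on both strands, was found for 6 members, 25.0%, against 6.02% of windows. A sterol response element core, TCACNCCAC on either strand, was found for 1 member, Hmgcs1, 4.17%, against 1.05% of windows. A direct repeat of AGGTCA with a spacer of 4 bases on either strand, the element read by LXR receptors, was found for no member and in 0.0152% of windows. A member was counted where any of its windows held the letters, so members with several windows had more chances than single windows. The CCAAT box was also found for Mvk, Ggps1, Srebf2 and Mylip, which were not called with the CD-HFD in WT liver, and for Soat1, which rose, and it was not found for Acat2, Scap, Abca1 and Abcg5, which fell. Such matches are descriptions of letters and not binding sites. Below, capitals mark these matches and the rest is in lower case, each sequence running 5′ to 3′ on the strand of its gene. No matches overlapped in the stretches shown. The stretches are chr13:119690101-119690350 on the plus strand for Hmgcs1, chr13:8885356-8885605 on the plus strand for Idi1, chr9:42264301-42264550 on the minus strand for Sc5d, chr19:6067851-6068100 on the minus strand for Tm7sf2 and chr5:28071162-28071411 on the plus strand for Insig1.
Hmgcs1: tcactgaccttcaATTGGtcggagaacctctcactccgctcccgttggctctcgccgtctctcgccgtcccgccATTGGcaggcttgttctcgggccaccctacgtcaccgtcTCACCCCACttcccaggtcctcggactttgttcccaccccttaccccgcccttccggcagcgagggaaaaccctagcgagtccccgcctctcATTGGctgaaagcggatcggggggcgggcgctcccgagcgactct
Idi1: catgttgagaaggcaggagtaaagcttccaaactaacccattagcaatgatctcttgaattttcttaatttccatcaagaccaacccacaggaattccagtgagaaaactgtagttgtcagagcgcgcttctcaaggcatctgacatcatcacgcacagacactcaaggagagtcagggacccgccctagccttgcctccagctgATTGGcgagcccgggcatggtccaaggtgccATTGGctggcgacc
Sc5d: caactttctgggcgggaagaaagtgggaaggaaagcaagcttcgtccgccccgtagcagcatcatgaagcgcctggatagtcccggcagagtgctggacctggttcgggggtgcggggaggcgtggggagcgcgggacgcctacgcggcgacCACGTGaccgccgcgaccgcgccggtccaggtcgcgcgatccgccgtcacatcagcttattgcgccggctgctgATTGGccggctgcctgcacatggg
Tm7sf2: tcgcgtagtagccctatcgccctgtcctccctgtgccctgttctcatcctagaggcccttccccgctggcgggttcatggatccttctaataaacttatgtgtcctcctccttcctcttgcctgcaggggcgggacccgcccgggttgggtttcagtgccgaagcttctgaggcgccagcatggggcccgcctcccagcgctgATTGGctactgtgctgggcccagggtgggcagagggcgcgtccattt
Insig1: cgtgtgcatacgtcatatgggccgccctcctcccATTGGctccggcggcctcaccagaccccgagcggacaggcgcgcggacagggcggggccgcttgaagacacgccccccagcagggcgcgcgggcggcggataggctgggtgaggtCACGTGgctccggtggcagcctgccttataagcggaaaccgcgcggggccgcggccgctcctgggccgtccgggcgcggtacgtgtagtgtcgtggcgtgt
Abcg5 and Abcg8 lie head to head on chromosome 17, and only 109 bases, chr17:84683012-84683120 on the plus strand, part their start sites in this annotation. They are shown because both genes were called in the interaction of MlklKO with the CD-LFD below, and they held none of the 4 motifs.
Abcg5-Abcg8: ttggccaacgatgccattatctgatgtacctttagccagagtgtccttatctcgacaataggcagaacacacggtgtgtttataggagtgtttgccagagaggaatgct

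Sequencing depth was 2476268 to 12471844 counts a library, apart from the 88204703 counts of WT CD-LFD replicate 3. Ripk3 had 0 to 2 reads in the Ripk3KO libraries except control replicate 5, which had 9, a level of 1.01 CPM (reads scaled to the size of the library) that lies within the WT controls. Without the library so labelled the members called were 21 for the CD-HFD and 11 for the CD-LFD against control in Ripk3KO liver, 2 for Ripk3KO against WT on control and 0 for both Ripk3KO interactions, where all libraries gave 21, 12, 2 and 0. Mlkl was at 1.24 to 2.61 CPM in MlklKO and 2.02 to 5.50 in WT controls, which overlap, and at 2.83 to 3.93 against 10.3 to 17.9 with the CD-LFD, which do not. With the CD-HFD it was at 17.2 to 22.6 CPM in WT and at 6.02 and 3.55 in MlklKO replicates 2 and 4, but replicate 1, labelled MlklKO like these, had 14.4 CPM, closer to WT than to its own group. Counts of members called that rest on that library are therefore also given without it. The log2 ratio of Arntl to Dbp, clock genes that peak at opposite times of day, was −2.63 to 2.63 in 11 libraries (4 WT control, all 6 WT CD-LFD and 1 WT CD-HFD) and −7.47 to −3.60 in the other 33, and no knockout library was on the high side. Within the low side the MlklKO controls, at −4.87 to −3.60, did not overlap the MlklKO CD-LFD (−6.70 to −5.73) or CD-HFD libraries (−5.93 to −5.09). Choline-deficient diet and clock ratio therefore cannot be told apart against control in MlklKO liver. The summed level of 6 hepatocyte markers was 67668 to 134659 CPM in WT control and 52042 to 80360 in WT CD-HFD libraries. The summed level of 9 macrophage markers was 168 to 221 CPM in WT control, 242 to 389 in WT CD-LFD and 1025 to 2634 in WT CD-HFD. With the CD-HFD in WT liver 6 of 7 stellate, 5 of 5 cholangiocyte, 4 of 5 T cell, 3 of 4 neutrophil and 1 of 3 B cell markers rose, and 4 of 5 endothelial markers fell. In whole liver, fewer cells of a type and less RNA per cell cannot be told apart. Levels below are CPM scaled by the trimmed mean of M-values, changes are fitted log2 differences with their standard errors (SE), and a gene was called where its p-value, adjusted over all 14862 genes in edgeR's quasi-likelihood test, was under 0.05.

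In WT liver the CD-HFD was accompanied by lower transcripts along nearly the whole cholesterol pathway. Of the 29 genes, 23 fell and 1, Soat1, rose, where 24.1% of all tested genes fell and 23.5% rose. The median log2 change of the 29 genes was −1.06, against −0.07 over all genes. All 11 squalene and sterol genes fell, as did 6 of 8 mevalonate and isoprenoid genes, 2 of 4 regulators and 4 of 6 transport genes. The 5 genes that were not called were Mvk (−0.38, SE 0.22), Ggps1 (0.07, SE 0.15), Srebf2 (0.23, SE 0.17), Mylip (0.07, SE 0.23) and Soat2 (−0.11, SE 0.26).

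Tm7sf2, a sterol C14 reductase that acts after lanosterol demethylation, had the smallest adjusted p. Its level was 114, 201 and 255 CPM (lowest, median and highest) in WT control and 38.6, 47.8 and 49.9 in WT CD-HFD. The groups did not overlap, and the CD-HFD libraries lay within a narrow band. The change was −2.04 on the log2 scale (SE 0.18, adjusted p = 2.36e-12, edgeR), 4.12-fold. Ebp, the sterol isomerase that shifts the ring double bond, was at 216, 265 and 393 CPM in control and 105, 116 and 162 in CD-HFD libraries. It too was lower in every CD-HFD library than in any control (−1.21, SE 0.13, adjusted p = 3.8e-10, edgeR). Nsdhl, which removes methyl groups at C4 together with Msmo1 and Hsd17b7, was at 95.6, 101 and 112 CPM in control and 32.4, 49.4 and 59.6 in CD-HFD. Its control libraries were the most alike of the genes in this paragraph, and the change was −1.06 (SE 0.15, adjusted p = 9.65e-08, edgeR). The other sterol-step genes changed by −0.56 (Fdft1, squalene synthase) to −1.44 (Sc5d, the C5 desaturase).

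Among the mevalonate genes, Pmvk, phosphomevalonate kinase, was at 36.5, 81.2 and 136 CPM in WT control and 12.9, 21.7 and 25.4 in WT CD-HFD. All 6 CD-HFD libraries lay below every control, although the controls themselves ranged widely. The change was −1.96 (SE 0.25, adjusted p = 2.98e-08, edgeR). Acat2, the thiolase at the entry of the pathway, changed by −1.44 (SE 0.20), and Hmgcs1, the synthase after it, by −0.73 (SE 0.24). Mvd, the decarboxylase that makes isopentenyl diphosphate, changed by −0.87 (SE 0.22), and Fdps, which makes farnesyl diphosphate, by −1.14 (SE 0.35). Ggps1, whose product serves protein prenylation and not sterol synthesis, was not called in any diet comparison of any genotype with this scaling.

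The regulators split. Srebf2 was at 46.4, 47.8 and 96.4 CPM in WT control, 51.4, 66.8 and 84.4 in WT CD-LFD and 64.2, 70.9 and 90.2 in WT CD-HFD. These ranges overlapped, with WT control replicates 1 and 3 at 85.2 and 96.4 CPM and the other 4 at 46.4 to 48.6, and the CD-HFD change was not called (adjusted p = 0.257, edgeR). Insig1, a target of SREBP2 as well as its brake, was at 389, 459 and 655 CPM in control, 223, 329 and 443 in CD-LFD and 102, 168 and 205 in CD-HFD. The CD-HFD libraries lay below all others of the WT, and the change from control was −1.62 (SE 0.23, adjusted p = 1.4e-07, edgeR). Scap was at 133, 163 and 231 CPM in control and 46.7, 55.5 and 66.0 in CD-HFD. Again no library overlapped (−1.60, SE 0.16, adjusted p = 1.36e-10, edgeR). Thus Srebf2 transcript was not called in the livers where Insig1 and Scap transcripts fell. Mylip, the ubiquitin ligase IDOL that degrades lipoprotein receptors, ranged from 4.54 to 13.7 CPM in CD-HFD and 6.11 to 9.87 in control.

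Soat1, the sterol esterifying enzyme that is abundant in macrophages, was the only member that rose. It was at 1.54, 3.29 and 6.13 CPM in WT control and 17.2, 21.4 and 44.3 in WT CD-HFD. Every CD-HFD library was above every control, by 7.18-fold in the fit (log2 2.84, SE 0.31, adjusted p = 5.93e-10, edgeR). In the same comparison 7 of 9 macrophage markers rose and 1 fell, with a median log2 change of 3.81, and their part in the Soat1 difference was not tested. Soat2, the esterifying enzyme of hepatocytes, was at 46.2, 66.0 and 151 CPM in control and 47.0, 62.6 and 140 in CD-HFD, with the highest CD-HFD value in replicate 6. Stard4, which moves cholesterol between membranes, fell by 1.38 (SE 0.24), Abca1 by 1.16 (SE 0.30), Abcg5 by 1.17 (SE 0.27) and Abcg8 by 1.12 (SE 0.29) on the log2 scale. Over the same libraries 5 of 6 hepatocyte markers fell and 1 rose, with a median of −0.86, and their part in these decreases was not tested.

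Not all of these calls held once the clock ratio was taken into account. Among the libraries with a low ratio only, which leaves 2 WT control and 5 WT CD-HFD libraries, 20 of the 24 calls remained and the members' median was −1.02. The calls lost were Hmgcs1 (0.05, adjusted p = 0.906), Mvd, Fdps and Fdft1. With the clock side as a covariate 19 of the 24 calls remained, Hmgcs1, Mvd, Fdps, Fdft1 and Sqle being lost, and Sqle was lost in 14 of 21 alternative fits. Scaling by library size alone moved the median of all genes from −0.07 to 0.43. It left 14 members lower and 4 higher (Soat1, Ggps1, Srebf2 and Mylip), with a members' median of −0.56. Another scaling moves all genes of a comparison by about the same amount, so the distance of the members from all genes is fixed by construction.

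**Figure D1:**
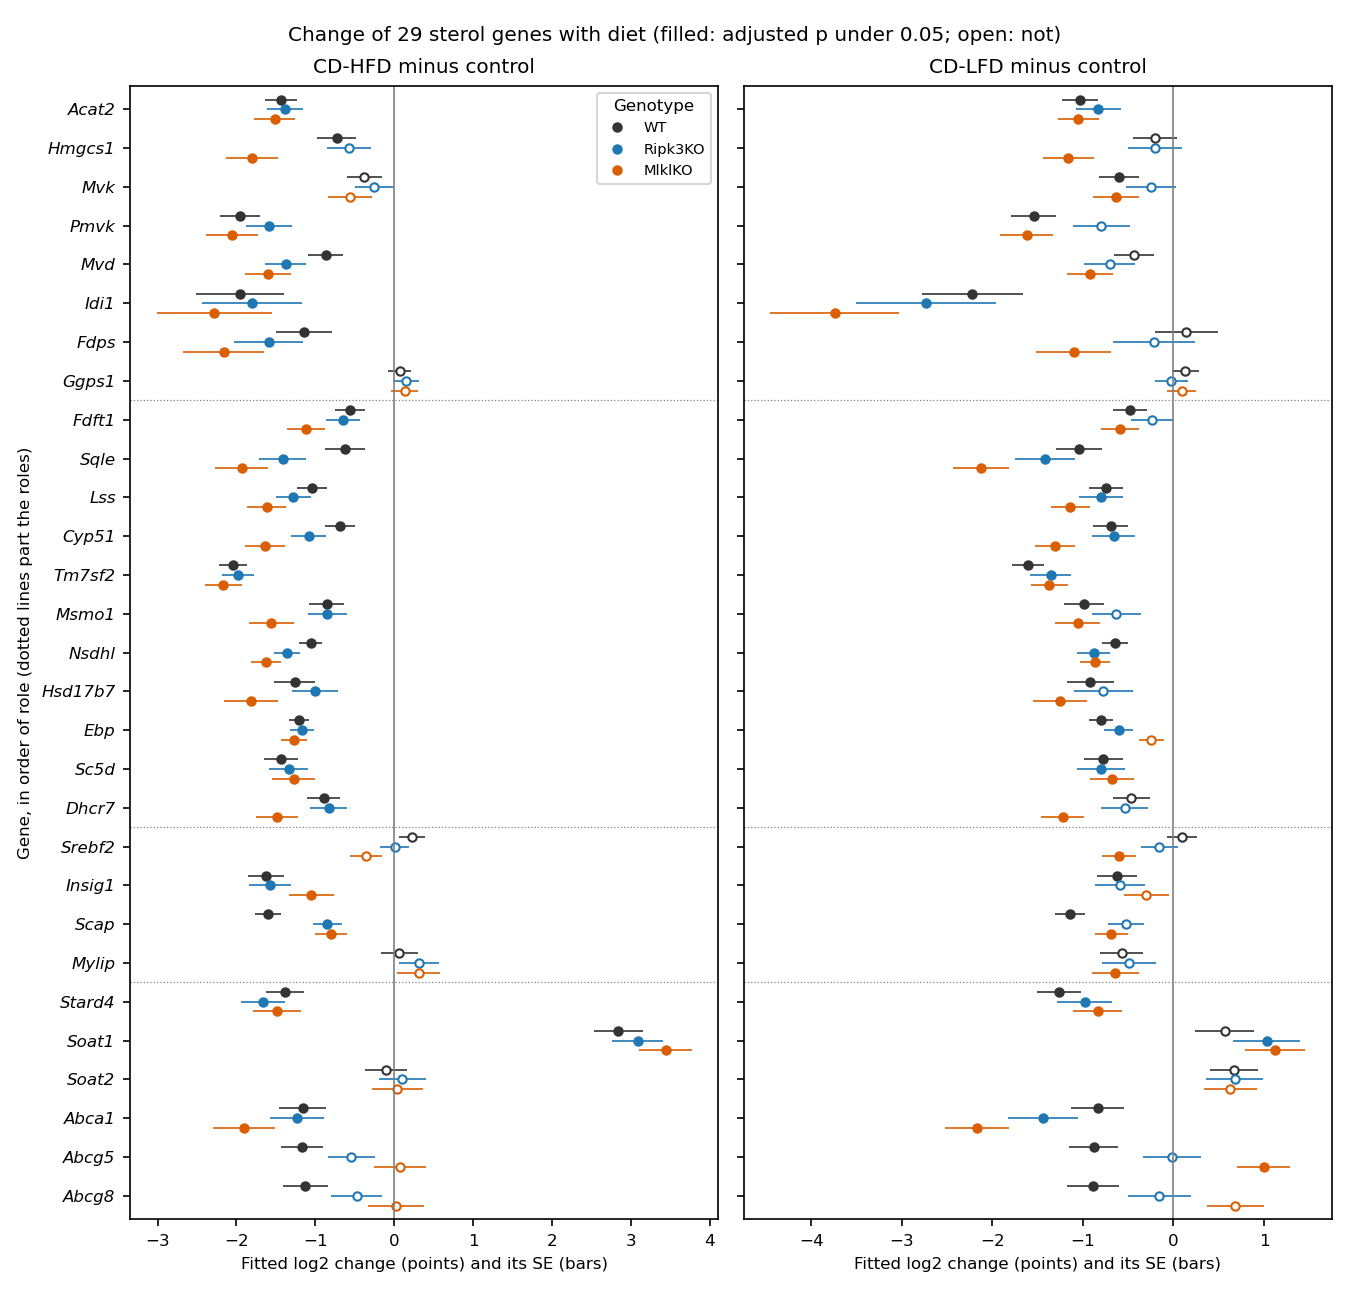
Fitted log2 change of each of the 29 genes with the CD-HFD (left) and the CD-LFD (right) against the control diet in WT, Ripk3KO and MlklKO liver, with bars of 1 SE. Filled points have an adjusted p under 0.05. Most genes lie left of 0 in all 3 genotypes on the CD-HFD, and Soat1 lies at 2.84 to 3.44 on the right.

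The choline-deficient diet without added fat was also accompanied by lower transcripts of the pathway in WT liver. With the CD-LFD 20 of the 29 genes fell and 0 rose (14.0% of all genes fell and 13.7% rose), with a median of −0.75 against −0.03 over all genes. The 20 genes comprised 10 of 11 sterol-step genes, 4 of 8 mevalonate genes, Insig1 and Scap among the regulators, and Stard4, Abca1, Abcg5 and Abcg8. At an unadjusted p under 0.05, 23 members would have been counted, among 5813 of all 14862 genes. In the same comparison 2 of 6 hepatocyte markers fell (median −0.47), 3 of 5 endothelial markers fell, and 6 of 7 stellate, 4 of 5 cholangiocyte, 4 of 5 T cell and 5 of 9 macrophage markers rose, with the other T cell marker lower. Their part in the members' changes was not tested.

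The genes with the smallest adjusted p were largely those of the CD-HFD comparison. Tm7sf2 was at 36.0, 61.8 and 85.0 CPM in WT CD-LFD, below every control (−1.61, SE 0.18, adjusted p = 4.4e-09, edgeR). Scap was at 58.1, 72.5 and 100 CPM and Ebp at 133, 165 and 194, and neither overlapped the controls (Scap −1.14, SE 0.16; Ebp −0.80, SE 0.13). Pmvk was at 14.1, 25.8 and 47.4 CPM and overlapped the 2 lowest controls (−1.54, SE 0.25, adjusted p = 1.15e-05, edgeR). Stard4 was at 73.5, 165 and 213 CPM in control and 35.8, 53.8 and 93.7 in CD-LFD, and Acat2 at 53.5, 105 and 160 against 32.8, 53.8 and 75.6. Both pairs of ranges overlapped at the low controls, with changes of −1.26 (SE 0.24) for Stard4 and −1.03 (SE 0.20) for Acat2. Insig1 changed by −0.62 (SE 0.22, adjusted p = 0.0328, edgeR) and Srebf2 by 0.09 (SE 0.17). The Insig1 call was lost in 9 of 21 alternatives, among them those without WT CD-LFD replicate 2, 5 or 6 or WT control replicate 1 or 3.

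Hmgcs1 and Fdps, early and late in the isoprenoid steps, were not called with the CD-LFD (−0.21, SE 0.24, and 0.14, SE 0.34). Soat1 was at 3.73, 5.02 and 7.06 CPM, which overlapped the control (0.57, SE 0.32, adjusted p = 0.192, edgeR). All 6 WT CD-LFD libraries had the high clock ratio. Against the 4 WT controls on the same side of the clock split, a comparison added after the data were seen, 8 members were called lower. Of the 20 calls 7 remained, the members' median was −0.67, and 10.4% of all genes were called, against 27.7% in the main fit. The log2 clock ratios did not overlap within that side, at 0.10 to 2.63 in the controls and −2.63 to −0.27 in the CD-LFD libraries. Diet and clock ratio cannot be told apart there. With the fit restricted to the groups compared 14 remained (15.1% of all genes were called), and by library size alone 13 were lower and 3 higher (32.8%).

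Fewer members were called between the 2 choline-deficient diets. Between CD-HFD and CD-LFD in WT liver 7 members were lower with the CD-HFD and 2 were higher (7.40% of all genes were lower and 13.7% higher), with a median of −0.32 against −0.01. Soat1 and Mylip were higher (Soat1 2.28, SE 0.28; Mylip 0.64, SE 0.23). In the same comparison 7 of 9 macrophage (median 2.06), 5 of 5 cholangiocyte, 4 of 5 T cell and 4 of 7 stellate markers were higher and 1 of 6 hepatocyte markers lower, and their part was not tested. The genes that were lower were Fdps, Nsdhl, Ebp, Sc5d, Insig1, Scap and Soat2. All 6 Soat1 values with the CD-HFD, 17.2 to 44.3 CPM, lay above the CD-LFD range. Insig1 was likewise separated, at −1.0 (SE 0.22, adjusted p = 0.000847, edgeR).

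Fdps was at 9.86, 26.4 and 43.1 CPM with the CD-LFD and 7.25, 9.20 and 16.3 with the CD-HFD (−1.28, SE 0.35, adjusted p = 0.00557, edgeR). The 2 lowest CD-LFD libraries lay within the CD-HFD range. Ebp was at 133, 165 and 194 CPM against 105, 116 and 162 (−0.41, SE 0.13), and Sc5d at 247, 404 and 592 against 163, 271 and 324 (−0.67, SE 0.21). Soat2 was at 78.8, 126 and 185 CPM with the CD-LFD against 47.0, 62.6 and 140 with the CD-HFD (−0.77, SE 0.26, adjusted p = 0.0300, edgeR). In each of these the ranges overlapped. The Soat1 call was lost in none of 19 alternative fits and those of Insig1 (−0.82, adjusted p = 0.0709) and Fdps (−0.82, adjusted p = 0.266) in 1, that with the clock side as a covariate. All 6 WT CD-LFD libraries had the high clock ratio and 5 of 6 WT CD-HFD libraries the low one, so diet and clock ratio nearly coincide in this comparison. The call of Soat2 was lost in 9, 7 of which left out a single library (WT CD-HFD replicate 1, 2, 3, 4 or 5, or WT CD-LFD replicate 4 or 6), with a change as small as −0.40. Mylip and Scap were lost in 11 each, Nsdhl in 8, Sc5d in 6 and Ebp in 4. With the clock side as a covariate 3 members were called, 2 of them from the 9 above, and leaving out WT CD-LFD replicate 1 left 4 called. Of all genes 15.1% and 17.7% were called in these fits, against 21.1% in the main fit. Without WT CD-LFD replicate 3, or without WT CD-HFD replicate 3, 5 were called (16.8% and 18.2% of all genes), and by library size alone 2 were lower and 2 higher (23.9%).

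**Figure D2:**
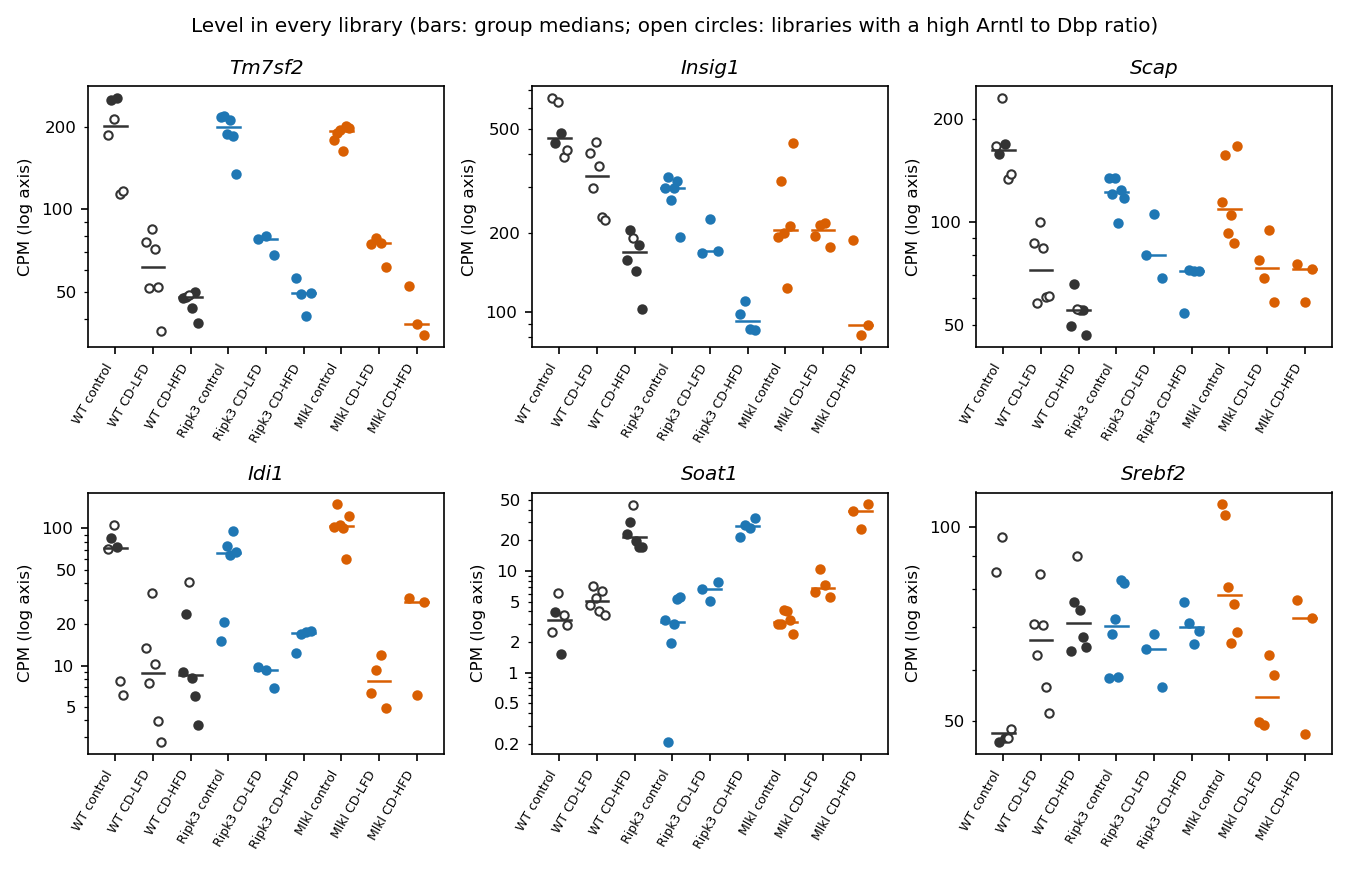
Level of 6 genes in every library by group, in CPM on a log axis, with group medians as bars and open circles for libraries with a high Arntl to Dbp ratio. Tm7sf2, Insig1 and Scap step down from control to CD-HFD in WT liver, Soat1 steps up, Idi1 splits within the WT controls, and Srebf2 overlaps between the diets in WT liver.

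In both knockouts most members also fell with the CD-HFD. In Ripk3KO liver 20 members fell and 1 rose with the CD-HFD (21.7% of all genes fell and 24.6% rose), with a median of −1.09 against −0.05 over all genes. In MlklKO liver 21 fell and 1 rose (20.3% and 24.9% of all genes), with a median of −1.49 against −0.04, and all 22 calls remained without the library labelled MlklKO CD-HFD replicate 1. The gene that rose was Soat1 in both. In all 3 genotypes 20 of the 29 members fell, against 10.6% of all tested genes, and 23 fell in at least 1 genotype. The 20 include all 11 sterol-step genes, Acat2, Pmvk, Mvd, Idi1 and Fdps, Insig1 and Scap, and Stard4 and Abca1. These 3 comparisons share no library, although they share the estimate of spread. Of 6 hepatocyte markers 5 fell in Ripk3KO (median −0.97) and 3 in MlklKO liver (median −0.82) with the CD-HFD. In each knockout 5 of 5 cholangiocyte, 6 of 7 stellate, 4 of 5 T cell, 3 of 3 B cell and 1 of 4 neutrophil markers rose. Endothelial markers fell for 3 of 5 in Ripk3KO and 1 of 5 in MlklKO liver. The part of these markers in the members' changes was not tested.

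Soat1 was at 21.8, 28.3, 26.8 and 33.1 CPM in the 4 Ripk3KO CD-HFD libraries and at 38.8, 26.0 and 45.2 in the 3 MlklKO CD-HFD libraries. All lay above their controls, which reached 5.53 CPM in Ripk3KO and 4.15 in MlklKO. The changes were 3.09 (SE 0.32, adjusted p = 1.85e-10, edgeR) in Ripk3KO and 3.44 (SE 0.33, adjusted p = 3.07e-11, edgeR) in MlklKO liver. The macrophage marker sum was 62.0 to 393 CPM in Ripk3KO control and 1424 to 1995 in Ripk3KO CD-HFD, and 98.2 to 246 and 1477 to 2505 CPM in the MlklKO groups. Its part in the Soat1 changes was not tested. By library size alone 13 members were lower and 4 higher with the CD-HFD in Ripk3KO, and 19 lower and 3 higher in MlklKO liver.

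Insig1 was at 97.7, 110, 86.0 and 85.0 CPM in Ripk3KO CD-HFD libraries, below the Ripk3KO controls at 192, 296 and 326 (−1.58, SE 0.26, adjusted p = 4.11e-06, edgeR). In MlklKO liver it was at 188, 81.3 and 88.9 CPM with the CD-HFD, where the first library, the one with the high Mlkl level, lay among the controls at 123, 206 and 440 (−1.05, SE 0.29, adjusted p = 0.00241, edgeR). Without it the change was −1.55. Srebf2 was not called with the CD-HFD in either (0.01, SE 0.18, in Ripk3KO and −0.35, SE 0.20, in MlklKO). It was at 76.4, 70.8, 65.9 and 69.0 CPM in Ripk3KO CD-HFD and 76.96, 47.8 and 72.2 in MlklKO CD-HFD libraries. Abcg5 and Abcg8, which fell in WT liver, were not called in Ripk3KO (−0.55, SE 0.30, and −0.47, SE 0.32) or MlklKO liver (0.07, SE 0.33, and 0.02, SE 0.35).

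With the CD-LFD 11 members fell and 1 rose in Ripk3KO liver (10.1% and 14.0% of all genes), with a median of −0.61 against 0.01. In MlklKO liver 22 fell and 2 rose (18.3% and 19.7% of all genes), with a median of −0.87 against 0.06. Soat1 rose in both, and Abcg5 rose in MlklKO liver. The Soat1 call was lost in none of 18 alternatives in MlklKO, but in 7 of 17 in Ripk3KO: with only the compared groups, with the replicate block, and without CD-LFD replicate 1 or 3 or control replicate 2, 3 or 4 (adjusted p up to 0.233). Hepatocyte markers fell for 2 of 6 in each (medians −0.50 and −0.07, with 1 higher in MlklKO), and macrophage markers rose for 5 and 6 of 9. In Ripk3KO liver 5 of 5 cholangiocyte, 5 of 7 stellate, 3 of 5 T cell and 3 of 3 B cell markers rose, and of 5 endothelial markers 2 fell and 1 rose. In MlklKO liver 3 of 7 stellate, 3 of 5 T cell and 3 of 3 B cell markers rose, 4 of 5 endothelial markers fell, and of 4 neutrophil markers 2 fell and 1 rose. Their part was not tested. In all 3 genotypes 10 members fell, against 3.80% of all genes: Acat2, Idi1, Sqle, Lss, Cyp51, Tm7sf2, Nsdhl, Sc5d, Stard4 and Abca1. The Ripk3KO CD-LFD group holds 3 libraries. Without its replicate 3 the members called there numbered 3 (9.11% of all genes), and without replicate 1 they numbered 7 (16.1%). The share of all genes in the main fit was 24.1%. By library size alone 6 fell and 2 rose there, and 18 fell and 4 rose in MlklKO liver. Srebf2 fell with the CD-LFD in MlklKO liver, where it was at 49.9, 49.3, 63.2 and 59.0 CPM against 66.1, 78.3 and 108 in control (−0.60, SE 0.19, adjusted p = 0.0110, edgeR). The groups did not overlap. In Ripk3KO liver Srebf2 was at 64.6, 68.1 and 56.4 CPM with the CD-LFD, overlapping the controls at 58.3, 70.1 and 82.8 (−0.16, SE 0.20). Insig1 was at 167, 226 and 170 CPM in Ripk3KO and 194, 214, 217 and 176 in MlklKO CD-LFD libraries, overlapping the controls in both, and was not called (−0.59, SE 0.28, and −0.30, SE 0.25).

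Between the choline-deficient diets few members were called in the knockouts. In Ripk3KO liver 2 were lower with the CD-HFD, Ebp and Insig1, and 1 was higher, Soat1 (3.08% and 5.75% of all genes), and the members' median was −0.41. In MlklKO liver Tm7sf2, Nsdhl and Ebp were lower and Soat1 and Mylip higher (9.14% and 14.6% of all genes), and the median was −0.50. Macrophage markers were higher for 7 of 9 in both (medians 2.19 in Ripk3KO and 2.31 in MlklKO), in Ripk3KO liver 1 of 5 cholangiocyte and 3 of 7 stellate markers were higher and 1 of 6 hepatocyte markers lower, and in MlklKO liver 5 of 5, 4 of 7 and 2 of 6. Their part was not tested. Ebp was called lower with the added fat in each genotype, at −0.41 in WT, −0.56 in Ripk3KO and −1.03 in MlklKO liver on the log2 scale. This call was lost in none of 15 alternatives in MlklKO, but in 7 of 15 in Ripk3KO, 5 of them the single libraries named below, and in 4 of 19 in WT, among them those without WT CD-HFD replicate 3 or WT CD-LFD replicate 1. With only the compared groups in the fit, 15 members were called in Ripk3KO and 13 in MlklKO liver, and with only the low clock ratio 7 and 11. Calls over all genes rose in these Ripk3KO fits too, to 20.6% and 12.5%, from 8.83% in the main fit. Without the library labelled MlklKO CD-HFD replicate 1 the MlklKO count was 12, 10 lower and 2 higher, and without replicate 4 it was 3. In Ripk3KO liver it was 1 without CD-LFD replicate 1 or 2, or without CD-HFD replicate 1, 3 or 5 (3.32% to 7.33% of all genes were called). By library size alone 0 were lower and 2 higher in Ripk3KO, and 1 lower and 4 higher in MlklKO liver.

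The change with diet was compared between genotypes as an interaction, the diet change in the knockout minus that in WT. For Ripk3KO no member was called with the CD-LFD (0.0269% of all genes were called) or the CD-HFD (0.478%). At an unadjusted p under 0.05 there were 2 members in each, among 1230 and 1624 of all 14862 genes, and DESeq2 called 0 in both. The CD-HFD interactions ran from −0.79 (Sqle) to 0.75 (Scap) with a median SE of 0.33. The lowest adjusted p was 0.144, for Scap, which fell by 1.60 in WT and 0.85 in Ripk3KO liver. For MlklKO and the CD-HFD no member was called (4.12% of all genes), 10 had an unadjusted p under 0.05 (2783 of all 14862 genes), and DESeq2 called 3. The lowest adjusted p there was 0.0583 for Sqle, squalene epoxidase, whose change with the CD-HFD was −1.94 in MlklKO and −0.63 in WT liver. The fit without MlklKO control replicate 6 called 5 members, and those without WT CD-HFD replicate 6 or the library labelled MlklKO CD-HFD replicate 1 called 2 each.

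For MlklKO and the CD-LFD 2 members were called, Abcg5 and Abcg8 (8.45% of all genes were called), a share no higher than that of all genes. In the same interaction 1 of 3 B cell markers was higher and 1 of 5 cholangiocyte markers lower, and their part was not tested. Abcg5 was at 79.7, 104 and 178 CPM in WT control and 43.1, 56.8 and 86.0 in WT CD-LFD. In MlklKO liver it was at 23.9, 39.3 and 70.6 CPM in control and at 78.3, 79.4, 110 and 62.7 in CD-LFD. Thus the WT libraries were mostly lower and the MlklKO libraries mostly higher with the diet, each pair of ranges overlapping slightly. The interaction was 1.88 (SE 0.40, adjusted p = 0.00229, edgeR), from −0.88 (SE 0.27) in WT and 1.0 (SE 0.29) in MlklKO. Abcg8 was at 48.8, 99.9 and 125 CPM in WT control and 43.8, 46.4 and 69.2 in WT CD-LFD, and at 19.2, 49.3 and 111 in MlklKO control and 83.0, 90.3, 136 and 33.7 in MlklKO CD-LFD. Its interaction was 1.57 (SE 0.43, adjusted p = 0.0170, edgeR), and MlklKO CD-LFD replicate 4 lay apart from the other 3. On the CD-LFD itself neither gene was called between MlklKO and WT (means of 82.5 and 59.8 CPM for Abcg5, 85.8 and 51.6 for Abcg8). The control libraries used here are those of the MlklKO and WT comparison on the control diet below. The Abcg5 call remained in all 30 alternative fits, and the Abcg8 call was lost with only the compared groups in the fit and without MlklKO CD-LFD replicate 3. By library size alone 6 other members were also called, all lower. Without WT control replicate 3 the count was 6, without WT control replicate 1 or MlklKO control replicate 6 it was 5, and without WT CD-LFD replicate 6 or MlklKO CD-LFD replicate 4 it was 4.

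Between genotypes on the same diet 0 to 8 members were called, against 12 to 24 between a choline-deficient diet and control within a genotype and 3 to 9 between the choline-deficient diets. Of all 14862 genes 0 to 4029, 3576 to 7082 and 1312 to 3523 were called in these. On the control diet 8 members differed between MlklKO and WT, 4 lower and 4 higher (14.1% of all genes were lower and 13.0% higher), a share near that of all genes. Abcg5, Insig1, Abcg8 and Scap were lower and Sqle, Abca1, Cyp51 and Srebf2 higher. In the same comparison 3 of 3 B cell markers were lower, 2 of 6 hepatocyte, 2 of 5 cholangiocyte, 2 of 4 neutrophil and 1 of 7 stellate markers higher, and 2 of 5 endothelial markers higher and 1 lower. Their part was not tested. The Abcg5 difference, from the values above, was −1.42 (SE 0.27, adjusted p = 0.000149, edgeR). Insig1 was at 123, 206 and 440 CPM in MlklKO and 389, 459 and 655 in WT controls, overlapping by the highest MlklKO library (−1.02, SE 0.22, adjusted p = 0.000727, edgeR). Sqle was at 48.6, 105 and 156 CPM in WT and 144, 227 and 258 in MlklKO controls, again with a slight overlap (1.10, SE 0.26, adjusted p = 0.00134, edgeR). Abca1, the exporter of cholesterol to lipoprotein, was at 107, 189 and 273 CPM in WT and 247, 326 and 727 in MlklKO controls (1.13, SE 0.29, adjusted p = 0.00404, edgeR). Its 2 highest MlklKO libraries, replicates 1 and 2, were at 727 and 523 CPM.

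The other 4 differences were Abcg8 at −0.84 (SE 0.29), Scap at −0.47 (SE 0.16), Cyp51, lanosterol demethylase, at 0.61 (SE 0.19) and Srebf2 at 0.43 (SE 0.17). Srebf2 was at 66.1, 78.3 and 108 CPM in MlklKO controls, against 46.4, 47.8 and 96.4 in WT. Of the WT controls 4 of 6 had the high clock ratio and no MlklKO control did. Among libraries with the low ratio 3 of the 8 calls remained, those of Insig1, Abcg5 and Srebf2, with 2 WT controls left. These 2 had log2 ratios of −5.67 and −7.47, below the −4.87 to −3.60 of the MlklKO controls. Genotype and clock ratio thus cannot be told apart in that fit. Of the calls lost there, Sqle was at 0.96 (adjusted p = 0.0590), Abca1 at 1.09 and Abcg8 at −1.01, close to the sizes in the full fit, while Cyp51 was at 0.37 and Scap at −0.42. The calls of Insig1 and Abcg5 were lost in none of 21 alternative fits, but that of Srebf2 was lost in 11, among them 7 that each left out 1 library (MlklKO control replicate 1, 2 or 3, or WT control replicate 2, 4, 5 or 6) and library size alone, with changes of 0.28 to 0.87. Scap was lost in 9, 5 of them a single library (MlklKO control replicate 1, 3, 4 or 5, or WT control replicate 3), Abcg8 in 7, 5 of them a single library (MlklKO control replicate 3, 4 or 5, or WT control replicate 2 or 3), and Cyp51 in 5, among them that without WT control replicate 6. Leaving out WT control replicates 5 and 6 together left 5 of the 8. Leaving out MlklKO control replicate 3 gave 5 members called. By library size alone 5 were lower and 3 higher.

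**Figure D3:**
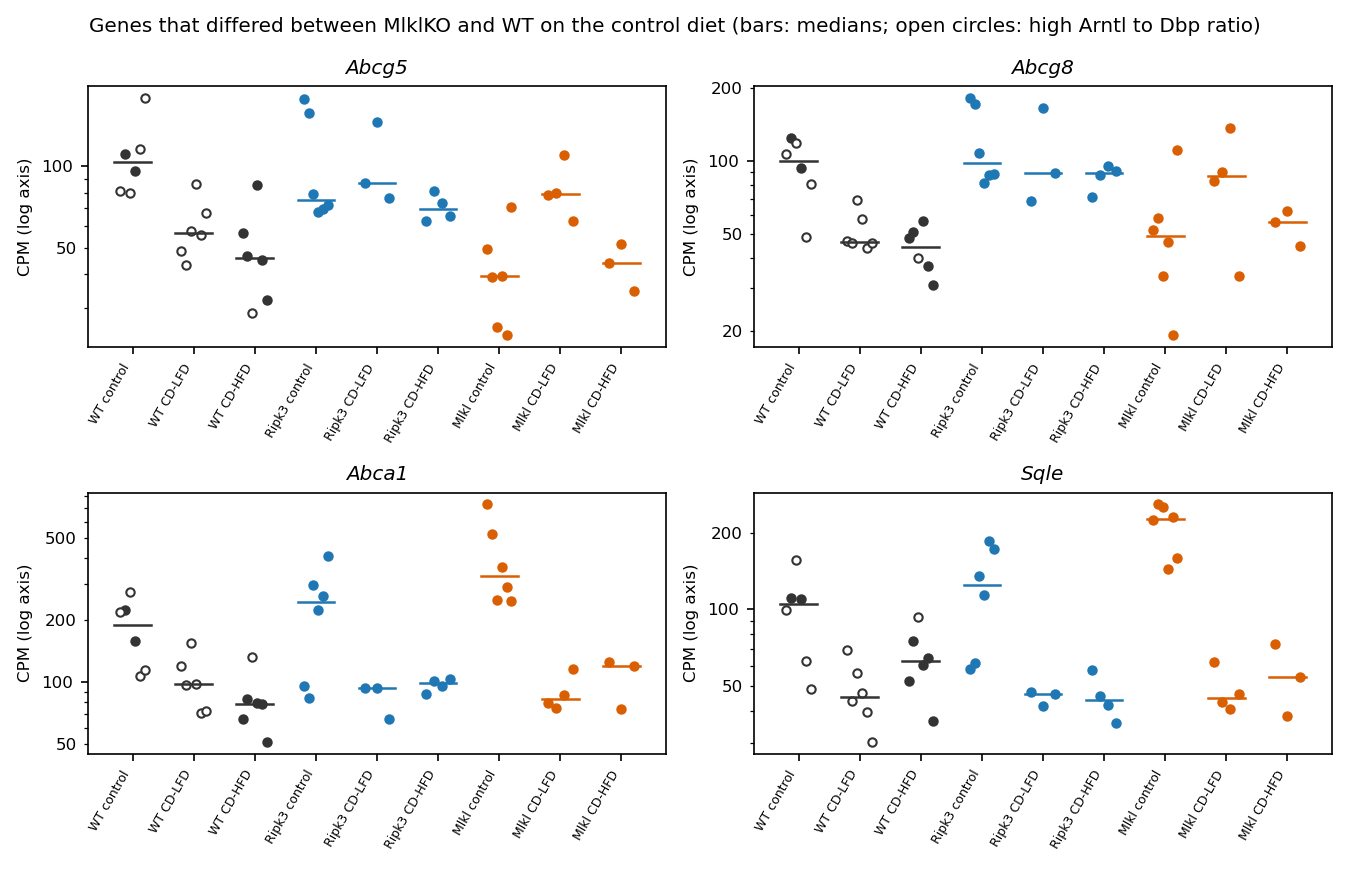
Level of Abcg5, Abcg8, Abca1 and Sqle in every library by group, in CPM on a log axis, with group medians as bars and open circles for libraries with a high Arntl to Dbp ratio. In MlklKO controls Abcg5 and Abcg8 have lower medians (39.3 and 49.3 CPM) than in WT controls (104 and 99.9), and Abca1 and Sqle higher ones.

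Between Ripk3KO and WT on the control diet 2 members were called, both lower (4.47% of all genes were called). In the same comparison 2 of 6 hepatocyte and 1 of 4 neutrophil markers were higher, no marker was lower, and their part was not tested. Hmgcs1 was at 181, 257 and 285 CPM in Ripk3KO and 262, 503 and 705 in WT controls with overlap (−1.01, SE 0.25, adjusted p = 0.0116, edgeR). Insig1 was at 192, 296 and 326 CPM against 389, 459 and 655, with no overlap (−0.83, SE 0.22, adjusted p = 0.0225, edgeR). The 2 WT controls with a low clock ratio, replicates 2 and 4, were at 274 and 262 CPM for Hmgcs1, within the Ripk3KO range. Within the low ratio the Hmgcs1 difference was −0.13 (adjusted p = 0.895) and that of Insig1 −0.70 (adjusted p = 0.249). Neither call remained there, with the clock side as a covariate or with only the compared groups, although Insig1 stayed between −0.68 and −0.96 over all 21 alternatives. Acat2 (−0.78) and Pmvk (−1.12) were called within the low ratio instead. In the full fit 1 member was called without WT control replicate 1 or 3, or without Ripk3KO control replicate 3 or 6.

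On the CD-LFD no member was called between Ripk3KO and WT (1.10% of all genes were), with 6 at an unadjusted p under 0.05 (1692 of all 14862 genes) and 1 by DESeq2. Between MlklKO and WT on the CD-LFD 2 were lower (2.56% of all genes were called). Fdps was at 5.34, 3.43, 5.29 and 13.7 CPM in MlklKO and 9.86, 26.4 and 43.1 in WT libraries, overlapping by 1 MlklKO library (−1.82, SE 0.42, adjusted p = 0.00943, edgeR). Hmgcs1 was at 216, 170, 190 and 254 CPM against 348, 415 and 561, with no overlap (−1.04, SE 0.28, adjusted p = 0.0341, edgeR). Every WT and no MlklKO library in that comparison had the high clock ratio, so genotype and clock ratio cannot be told apart there. No member was called with the clock side as a covariate, and none without MlklKO CD-LFD replicate 1 or without replicate 2. Without WT CD-LFD replicate 5 or 6 there was 1.

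On the CD-HFD hardly any member was called between genotypes. Between Ripk3KO and WT 1 member was called, Mvd (0.377% of all genes were). Mvd was at 13.0, 13.7, 11.7 and 8.53 CPM in Ripk3KO and 22.7, 23.8 and 27.7 in WT libraries. The groups did not overlap (−1.07, SE 0.26, adjusted p = 0.0449, edgeR), yet the call was lost whichever single library was left out, with an adjusted p of up to 0.260. Between MlklKO and WT 0 members and 0% of all genes were called in edgeR, and 0 members with DESeq2. At an unadjusted p under 0.05 there were 6 members, among 1246 of all 14862 genes, and without the library labelled MlklKO CD-HFD replicate 1 the count called was also 0. Estimates there ran to −1.59 for Fdps (SE 0.51) and −1.16 for Hmgcs1 (SE 0.32) with 3 libraries labelled MlklKO, and were −2.39 and −1.46 without replicate 1.

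The spread within groups was itself uneven across members. Idi1, the isomerase of isopentenyl diphosphate, is singled out here after its values were seen. In WT controls it was at 71.1, 84.5, 106, 73.5, 7.76 and 6.11 CPM in replicates 1 to 6. Replicates 5 and 6 were thus within the WT CD-HFD range of 3.71 to 41.0 CPM. They were also the lowest WT controls in Sqle (62.5 and 48.6 CPM), Hsd17b7 (40.2 and 26.2), Pmvk (36.5 and 40.8), Stard4 (73.5 and 79.2) and Abca1 (107 and 115), but were among the higher WT controls in Hmgcs1 (700 and 556) and the highest in Mvd (51.1 and 58.9). Both had the high clock ratio, as did replicates 1 and 3.

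In Ripk3KO controls the low Idi1 libraries were replicates 1 and 2, at 15.2 and 20.9 CPM against 64.4 to 95.7 in the other 4. The same 2 libraries were lowest in Sqle (58.1 and 61.4 CPM) and Abca1 (95.4 and 84.0) and highest in Abcg5 (177 and 156), Abcg8 (182 and 173) and Soat2 (88.4 and 85.7). Their clock ratio was on the low side. In WT controls replicate 6 was likewise low in Idi1, Sqle and Abca1 and highest in Abcg5 (178 CPM) and Soat2 (151), but it was second lowest in Abcg8 (80.2 CPM, with replicate 5 at 48.8 and the other 4 at 93.5 to 125). In WT CD-LFD liver the lowest Idi1 was in replicate 6, which was lowest in 20 of the 29 members and highest in Soat2 (185 CPM).

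Single libraries stood at the edge of their group in many members at once. WT CD-HFD replicate 6 was the lowest of its 6 libraries in 21 members and the highest in 1, Soat2. WT CD-HFD replicate 3, the only one there with a high clock ratio, was the highest in 18. Of the 3 MlklKO CD-HFD libraries the one labelled replicate 1, with the high Mlkl level, was highest in 25 members and replicate 2 lowest in 23. Leaving out any single library of WT control or CD-HFD left 23 or 24 members called between these groups.

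**Figure D4:**
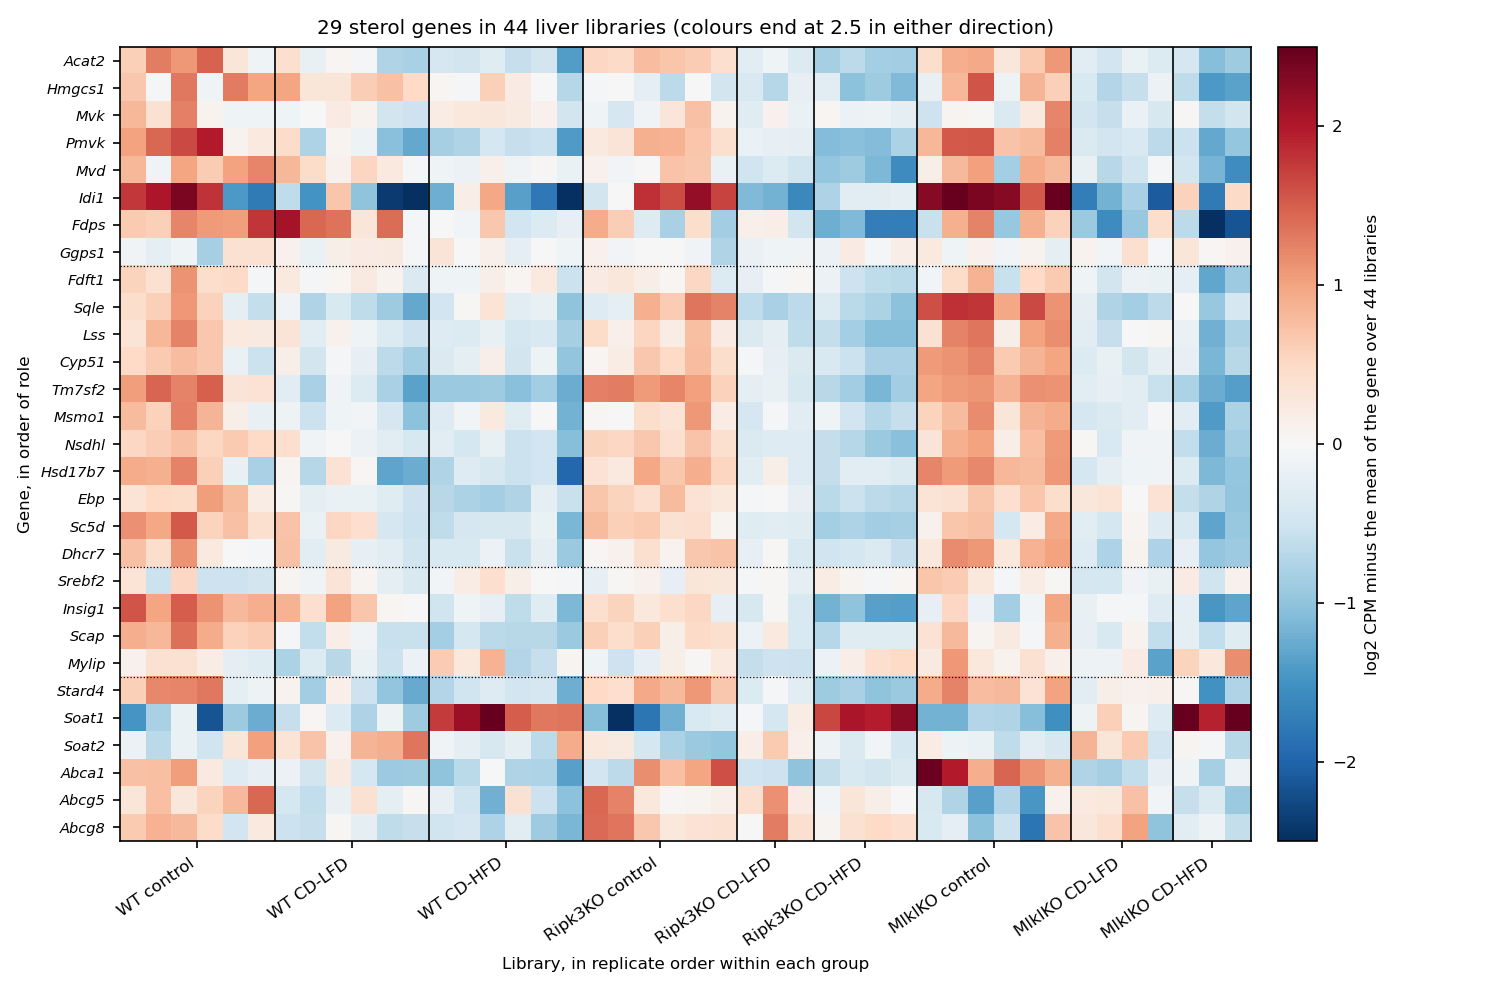
Level of the 29 genes (rows, by role) in 44 libraries (columns, by group), as log2 CPM minus the mean of the gene, with colours ending at 2.5. Control groups are mostly above and CD-HFD groups mostly below the mean, Soat1 runs the other way, and Idi1 is low in WT control replicates 5 and 6.

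Other sterol and isoprenoid genes moved less uniformly than the 29 members. Of 37 such genes, all measured, 8 rose and 12 fell in WT liver with the CD-HFD, where 23.5% of all genes rose and 24.1% fell, with a median of −0.17. Of the 8 genes of SREBP processing and sterol-dependent degradation 5 fell, led by Srebf1, the partner factor of fatty acid synthesis, at −2.19 (SE 0.27). Of 11 genes of sterol movement and hydrolysis inside the cell 5 rose and 1 fell, led by Gramd1b, which carries cholesterol from the plasma membrane, at 2.37 (SE 0.30), and Nceh1, a cholesteryl ester hydrolase, at 0.91 (SE 0.22). Of 7 genes of LXR and lipoprotein cholesterol 2 rose and 3 fell, led by Abcg1, an exporter of macrophages, at 1.77 (SE 0.22), and Lcat, the plasma esterifying enzyme, at −0.74 (SE 0.12). Of 11 genes of isoprenoid branches 1 rose and 3 fell, led by Rabggtb at −0.57 (SE 0.12) and Pdss2, of coenzyme Q synthesis, at −0.81 (SE 0.18). The macrophage markers given above moved with Abcg1 too, and their part was not tested.

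With the CD-LFD 3 of the 37 rose and 7 fell in WT liver, where 13.7% of all genes rose and 14.0% fell, with a median of −0.14. Of the 8 processing genes 2 fell, among them Srebf1 (−1.46, SE 0.26). Gramd1b (1.30, SE 0.30) and Gramd1c (0.71, SE 0.22) were the 2 of 11 movement genes that rose, and Pltp, a plasma phospholipid carrier (−2.10, SE 0.40), and Lcat (−0.50, SE 0.12) the 2 of 7 lipoprotein genes that fell. Of the isoprenoid branches 1 rose and 3 fell, led by Rabggtb (−0.42, SE 0.12) and Fnta, a subunit of prenyl transferases (−0.35, SE 0.10). Between CD-HFD and CD-LFD 3 were higher and 4 lower (13.7% and 7.40% of all genes). Npc2 (0.90, SE 0.21), Gramd1b (1.07, SE 0.25) and Abcg1 (1.46, SE 0.20) were higher, and Insig2, the second INSIG (−1.22, SE 0.28), Srebf1 (−0.73, SE 0.26), Gramd1c (−0.88, SE 0.22) and Nr1h3, LXR alpha (−0.27, SE 0.10), were lower, with none of the isoprenoid branches called.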

How the data were processed

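RNA of mouse liver was sequenced as 44 libraries from a strand-specific library kit, per the labels' protocols. The authors deposited 1 table of raw read counts per gene, with no normalization, and the submitters' processing notes name FastQC, STAR, HTSeq, edgeR, limma and GRCm39 (mm39) without roles. Identifiers of 34373 of 35249 genes were matched to symbols. Groups came from the genotype and diet labels. The 29 members, the lists of 37 other sterol genes and of cell type markers, and the alternatives were chosen with earlier results of these data known.

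Counts were fitted in edgeR 4.0.16 (R 4.3.3) with 9 group means over all 44 libraries, filterByExpr with a minimum count of 10, trimmed mean of M-values factors (0.799 to 1.34) and the quasi-likelihood F test. The p-values were adjusted by Benjamini-Hochberg over 14862 genes, which held 99.8% of the counts, in each of 19 comparisons. The SE is the change divided by the root of F. Same-numbered libraries were not paired, since no comparison had every pair's correlation of deviations over 0.1 (range −0.33 to 0.54). Over the WT diet comparisons, however, it was 0.38 to 0.49 for replicate 3 and 0.42 to 0.54 for replicate 6, and −0.15 to 0.34 for the other numbers. Whether these 2 numbers mark something shared was not tested. No 2 libraries of a group were alike within sampling noise, with a chi-square per degree of freedom of at least 7.26 over 93 pairs. The clock split is the widest gap in the libraries' Arntl to Dbp ratios with no fewer than 5 libraries above or below it (a gap of 0.97 in log2 units, 0.5 CPM added to each gene). Alternatives were other size factors, no filter, DESeq2 1.42.0, the clock, a replicate block, only the compared groups and each library left out. Steps were tested on simulated counts. Named members followed a rule: Srebf2 and Insig1 always, the 6 smallest adjusted p in each WT diet comparison, up to 4 called in each genotype comparison, and up to 2 per subgroup of other genes. Values of some single genes outside the 29 members are not reported here, although the counts include them.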

Additional observations from a re-analysis of the deposited data

Results flagged for a closer look

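Of 203 sets of values, 1 member in 1 group of 4 to 6 libraries each, 17 held a library that lay far from the others by Dixon's gap test, 8.37% where chance gives about 5%. WT CD-HFD replicate 6 was low in Acat2 (21.9 CPM, next 38.4), Mvk (17.5, next 26.1) and Hsd17b7 (11.7, next 27.1) and high in Soat2 (140, next 69.0). WT CD-HFD replicate 3 was high in Fdps (16.3 CPM, next 10.2). Ripk3KO CD-HFD replicate 1 was low in Idi1 (12.3 CPM, next 17.1) and Scap (54.3, next 72.0), and replicate 5 was high in Pmvk (19.96, next 16.7).

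On the control diet WT replicate 3 was high in Scap (231 CPM, next 169) and WT replicate 6 in Abcg5 (178, next 116). The library labelled Ripk3KO control replicate 5 was high in Msmo1 (249 CPM, next 160), and replicate 6 was low in Ggps1 (6.50, next 10.3). MlklKO control replicate 6 was high in Mvk (56.5 CPM, next 28.7) and replicate 2 in Mylip (16.1, next 9.80). With the CD-LFD, WT replicate 3 was high in Idi1 (33.6 CPM, next 13.5), MlklKO replicate 2 low in Fdft1 (86.3, next 106) and MlklKO replicate 1 low in Stard4 (70.7, next 92.5).

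The change with the CD-LFD differed between MlklKO and WT liver for Abcg5, by 1.88 on the log2 scale, and for Abcg8, by 1.57, in edgeR's test of the interaction. These interactions use the same control libraries as the control-diet differences of these genes. Neither gene was called between MlklKO and WT on the CD-LFD.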

How the results depend on the processing

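With each called member counted once in every alternative fit of its comparison, 2609 results kept direction and threshold, 315 lost the threshold and 1 reversed. The last was Hmgcs1 in WT CD-HFD against control, at 0.053 within the low clock ratio. The calls lost in none of the alternatives were 15 of 24 in that comparison, 5 of 20 with the WT CD-LFD, 14 of 21 and 19 of 22 with the CD-HFD in Ripk3KO and MlklKO, 3 of 12 and 18 of 24 with the CD-LFD in these, 1 of 9, 1 of 3 and 2 of 5 for CD-HFD against CD-LFD in WT, Ripk3KO and MlklKO, 0 of 2 and 2 of 8 for Ripk3KO and MlklKO against WT on control, 0 of 2 for MlklKO on CD-LFD, 0 of 1 for Ripk3KO on CD-HFD and 1 of 2 for the MlklKO interaction with the CD-LFD. Leaving out 1 library gave 23 to 24 members called for WT CD-HFD against control, 16 to 23 for WT CD-LFD against control, 21 and 21 to 23 for the CD-HFD in Ripk3KO and MlklKO liver, 3 to 14 and 19 to 24 for the CD-LFD in these, and, for CD-HFD against CD-LFD, 4 to 9 in WT, 1 to 3 in Ripk3KO and 3 to 12 in MlklKO. For Ripk3KO against WT it gave 1 to 3 on control, 0 on CD-LFD and 0 on CD-HFD, where the main count was 1. For MlklKO against WT it gave 5 to 10 on control and 0 to 2 on CD-LFD. For the MlklKO interactions it gave 2 to 6 with the CD-LFD and 0 to 5 with the CD-HFD. All knockout libraries lay on the low clock side. The clock alternatives thus compared the same libraries within a knockout and could not account for its clock ratios. Where the counts below differ from the main ones, the cause was not tested.

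For WT CD-LFD against control 8 members were called within the high clock ratio (10.4% of all genes, against 27.7% in the main fit). For WT CD-HFD against CD-LFD there were 4 by library size alone (23.9% of all genes), 5 with no count filter (7.8% of 35249) and 3 with the clock covariate (15.1%). For CD-HFD against CD-LFD there were 7 within the low clock ratio (12.5% of all genes) and 15 with only the compared groups (20.6%) in Ripk3KO, and 11 and 13 in MlklKO. For Ripk3KO against WT there were 5 by library size alone and 0 with the clock covariate or only the compared groups on control, 1 by DESeq2 and 3 with only the compared groups on CD-LFD, and 0 with the clock covariate or within the low clock ratio and 4 with only the compared groups on CD-HFD. For MlklKO against WT on control there were 4 within the low clock ratio and 4 with only the compared groups. On CD-LFD there were 4 by library size alone, 0 with the clock covariate and 4 with only the compared groups.

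For the MlklKO interaction with the CD-LFD there were 8 by library size alone, 6 by DESeq2, 4 without WT control replicates 5 and 6 and 1 with only the compared groups. For that with the CD-HFD there were 3 by RLE size factors, by library size alone and by DESeq2, 1 with no count filter or the clock covariate, and 2 within the low clock ratio or without WT control replicates 5 and 6. The replicate block, by numbers that were not taken to pair the libraries, called 0 members for Ripk3KO against WT on CD-HFD (1 without it), and 5 and 2 for the MlklKO interactions with the CD-LFD and CD-HFD (2 and 0 without it). It gave 24 for WT CD-HFD against control. Low counts limit Soat1, Mylip, Ggps1, Idi1, Fdps and Mvd, the members with a library under 10 CPM.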
